A study of Mus musculus with 2 samples.

Results

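Pvalb, Calb1 and Calb2, the genes of the calcium-binding proteins parvalbumin, calbindin and calretinin, were followed spot by spot across 2 coronal mouse brain sections that contained the dorsal hippocampus. They were taken by symbol, 3 genes of the 32285 rows in each count matrix. The proteins bind calcium through EF-hand loops and slow or shorten calcium signals in neurons. In forebrain circuits they are widely used to mark different classes of GABA neurons, parvalbumin for fast-spiking cells and calretinin for many interneuron-selective cells, while calbindin also fills principal cells such as dentate granule cells. All 3 genes also mark nuclei of the thalamus and hypothalamus, so a coronal section shows them well beyond the hippocampus.

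Visium was the assay: tissue lies on a grid of barcoded spots and unique molecular identifiers (UMIs) count the captured RNA molecules of each spot. Each section came from 1 adult male mouse, and both mice carried the ArcCreERT2::eYFPflx transgenes, a tagging system driven by the Arc gene, on a C57BL/6 background. The trained mouse had learned on a rotating arena to stay out of a zone that gave foot shocks, and the untrained mouse had run on the arena with the shock always off. Both brains were taken after a retention test without shock. There were 4152 spots and 29515831 UMIs for the trained label and 3738 spots and 59029131 UMIs for the untrained label, with medians of 5950.5 and 13766.5 UMIs per spot, and 194 and 114 of the spots had fewer than 500 UMIs. Paired values below give the section labelled trained first. The matrices shared 3448 spot barcodes, which are positions of the slide's grid and not shared cells. In the deposited data a tear ran through the section labelled untrained, whereas the study's picture shows it through the section called trained, so the labels may be exchanged and every direction below is that of the labels as deposited. With 1 section per group (n = 1 and n = 1) no test between the groups was possible, and all intervals are 95% intervals that cover counting error only.

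The genes lie on 3 chromosomes of GRCm38/mm10. Pvalb (ENSMUSG00000005716) spans chr15:78191114-78206400 on the minus strand with 4 exons, Calb1 (ENSMUSG00000028222) spans chr4:15881264-15908064 on the plus strand with 11 exons, and Calb2 (ENSMUSG00000003657) spans chr8:110137502-110168210 on the minus strand with 11 exons. The annotation places no other gene over any of them.

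All 3 genes were detected in both sections and patterned in space, with Calb2 in the fewest spots at equal depth and with the highest score of spatial patterning. Pvalb had 15932 UMIs in the section labelled trained and 15703 in the section labelled untrained, a level of 540 and 266 UMIs per 1000000 (CPM). Calb1 had 4230 and 7486 UMIs, or 143 and 127 CPM. Calb2 had 2913 and 8723 UMIs, or 98.7 and 148 CPM. At the same depth of 3000 UMIs per spot, which left out 922 and 274 shallower spots, 53.1% and 43.6% of spots held Pvalb, 29.1% and 26.9% held Calb1, and 19.0% and 23.5% held Calb2. Without thinning the shares were 65.7% and 77.5% for Pvalb, 41.3% and 61.6% for Calb1, and 25.1% and 48.9% for Calb2. Moran's I, the deposited score of how far neighbouring spots share a level, placed Calb2 among the most patterned genes of both sections, at 0.528 (rank 15 of 20513 genes) and 0.603 (rank 5 of 21498). Pvalb followed at 0.482 (rank 23) and 0.418 (rank 91), and Calb1 at 0.308 (rank 219) and 0.317 (rank 308).

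**Figure D1:**
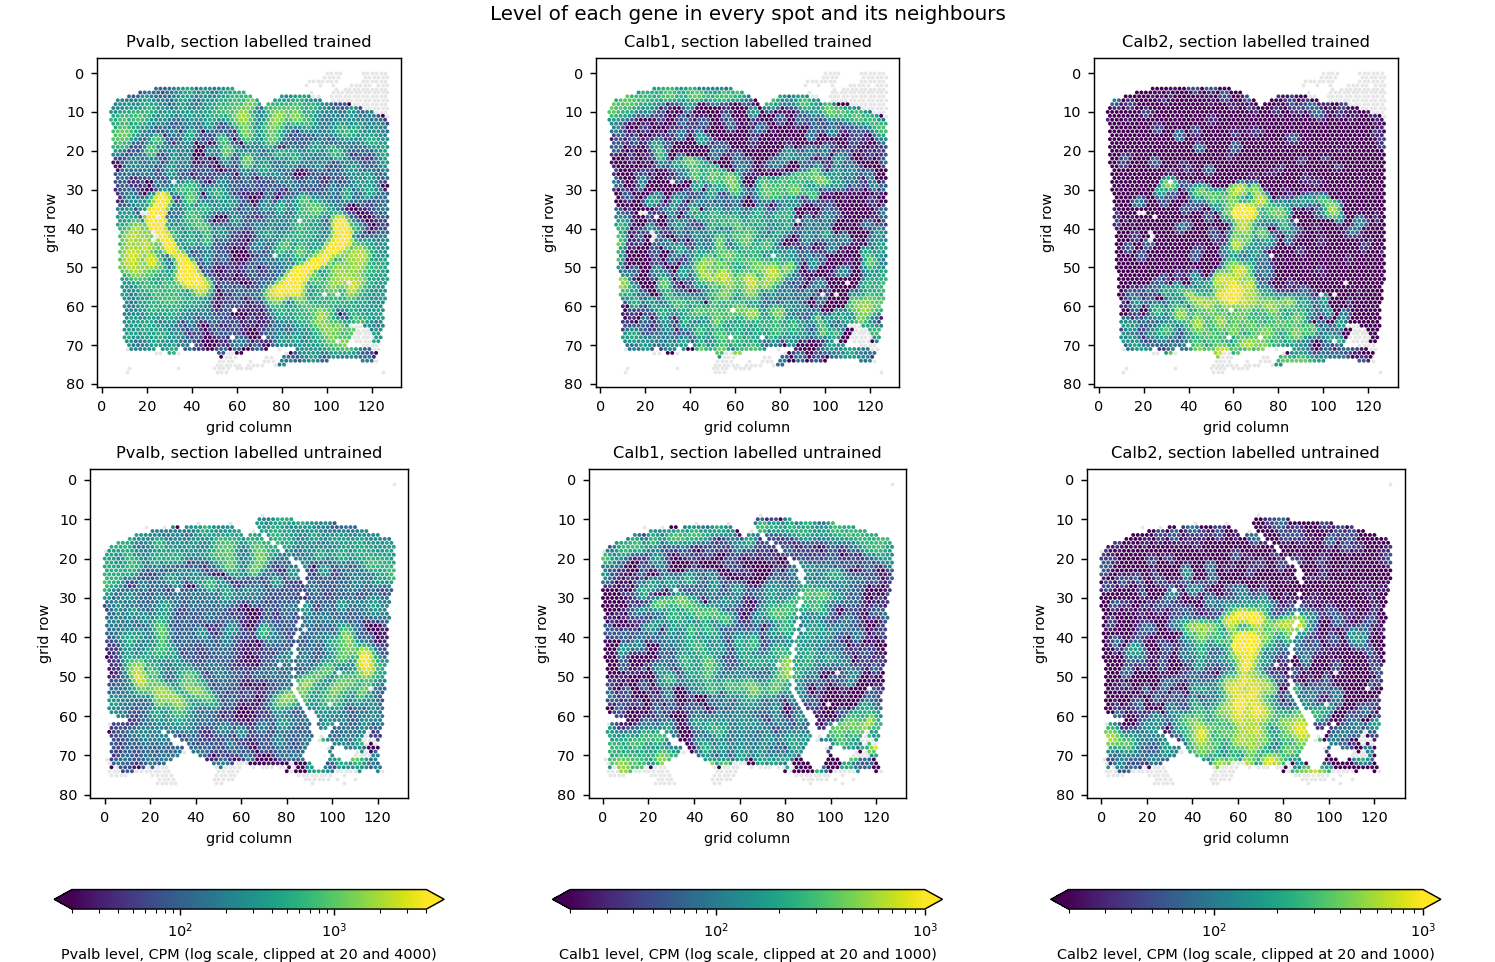
Level of each gene (CPM, log colour scale) in every spot pooled with its up to 6 neighbours, on the slide's grid of rows and columns, with both sections as rows and grey for spots without a value. Pvalb forms a lateral band on each side, Calb2 a midline column from the habenula to the hypothalamus, and Calb1 a more even pattern, and the line of missing spots in the lower panels is the tear.

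To compare places, the spots of both sections were grouped together into 23 regions by genes other than these 3 and other than known GABA neuron, interneuron and EF-hand genes, and each region is called by its leading genes. Of these, 22 had at least 20 spots in both sections. A region led by Cartpt and Vgll3 had 10 and 186 spots and is given only by its own values. Markers of the labelled tissue were present: regions with dentate, CA1 and CA3 marker genes held 586 and 566 spots, and other regions carried markers of thalamus, hypothalamus, habenula, deep cortex, striatum, white matter, choroid plexus, ependyma, meninges and vessels. The regions led by Dkkl1 and Tshz2, in the dorsal cortex by position, and by Klk8, in the hippocampus, had no marker set that clearly fitted their leading genes.

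Pvalb was concentrated most of all in the region led by Six3, a transcription factor gene that marks the thalamic reticular nucleus, a shell of GABA neurons around the thalamus, and by its neighbour Six3os1, a noncoding RNA gene. Its level there was 5113 CPM (4968 to 5260) and 2910 CPM (2759 to 3067), 9.47 and 10.9 times the level of the whole section. Only 1.78% and 0.614% of 11398 genes had a leading region that stood as far above their section, and the median gene reached 1.87 and 1.75 times. At 3000 UMIs 99.1% and 99.4% of Six3 spots held Pvalb. The next regions were that led by Spp1 and Syt2 (1778 and 837 CPM), a myelin-rich region led by Klk6 and Gjb1 (1226 and 546 CPM), and a cortical region led by Tshz2 and Stac2 beneath the dorsal surface and around the midline (871 and 685 CPM). In the hippocampus Pvalb stood at 404 and 241 CPM in the CA1 region led by Gm34466 and Lefty1, at 309 and 141 CPM in the CA1 region led by Spink8 and Ddn, at 216 and 204 CPM in the region led by Klk8 and Homer3, and at 102 and 121 CPM in the dentate region led by Dsp and C1ql2. The lowest region was the choroid plexus region led by Ttr and F5, with 47.6 and 74.3 CPM.

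Calb1 was spread more evenly, and no single region carried it. It led in the dentate region (325 CPM, 295 to 358, and 280 CPM, 263 to 297) and in a medial thalamic region led by Ctxn3, Cbln1 and Gbx2 (335 and 200 CPM). The striatal region led by Adora2a and Ido1 followed with 246 and 201 CPM, the hypothalamic region led by Oxt and Avp, the genes of oxytocin and vasopressin, with 254 and 142 CPM, and the outer cortical region led by Dkkl1 with 155 and 145 CPM. The leading region stood 2.34 and 2.21 times above its section, and 31.1% and 28.9% of genes were at least as concentrated. In the section labelled untrained the Cartpt region, with 262 CPM (246 to 279) over 186 spots, held 13.2% of all Calb1 UMIs. In the section labelled trained its 10 spots held 4 Calb1 UMIs, or 139 CPM (37.8 to 355). Within the hippocampus the dentate region lay above all others, with 101 and 120 CPM in the Gm34466 CA1 region, 53.5 and 105 CPM in the Spink8 CA1 region and 58.1 and 55.0 CPM in the Klk8 region. The lowest regions were the white matter region led by Enpp6 (15.2 and 41.7 CPM) and the choroid plexus region (16.8 and 28.6 CPM).

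Calb2 was a gene of the midline and the ventral brain. It was highest in the habenula region led by Gm5741 and Pou4f1 (616 CPM, 540 to 701, and 623 CPM, 581 to 666), then in the Oxt region (382 and 594 CPM), the medial thalamic Ctxn3 region (382 and 460 CPM) and the hypothalamic region led by Pmch and Nts, the genes of melanin-concentrating hormone and neurotensin (210 and 298 CPM). These 4 regions were the 4 highest in both sections. The leading region stood 6.25 and 4.21 times above its section, and 3.96% and 6.78% of genes were at least as concentrated. Hippocampal and cortical levels were far lower, with 14.6 and 45.0 CPM in the dentate region, 5.04 and 19.8 CPM in the Gm34466 CA1 region, and 7.001 and 16.58 CPM in the deep cortical region led by Ighm and Cplx3.

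**Figure D2:**
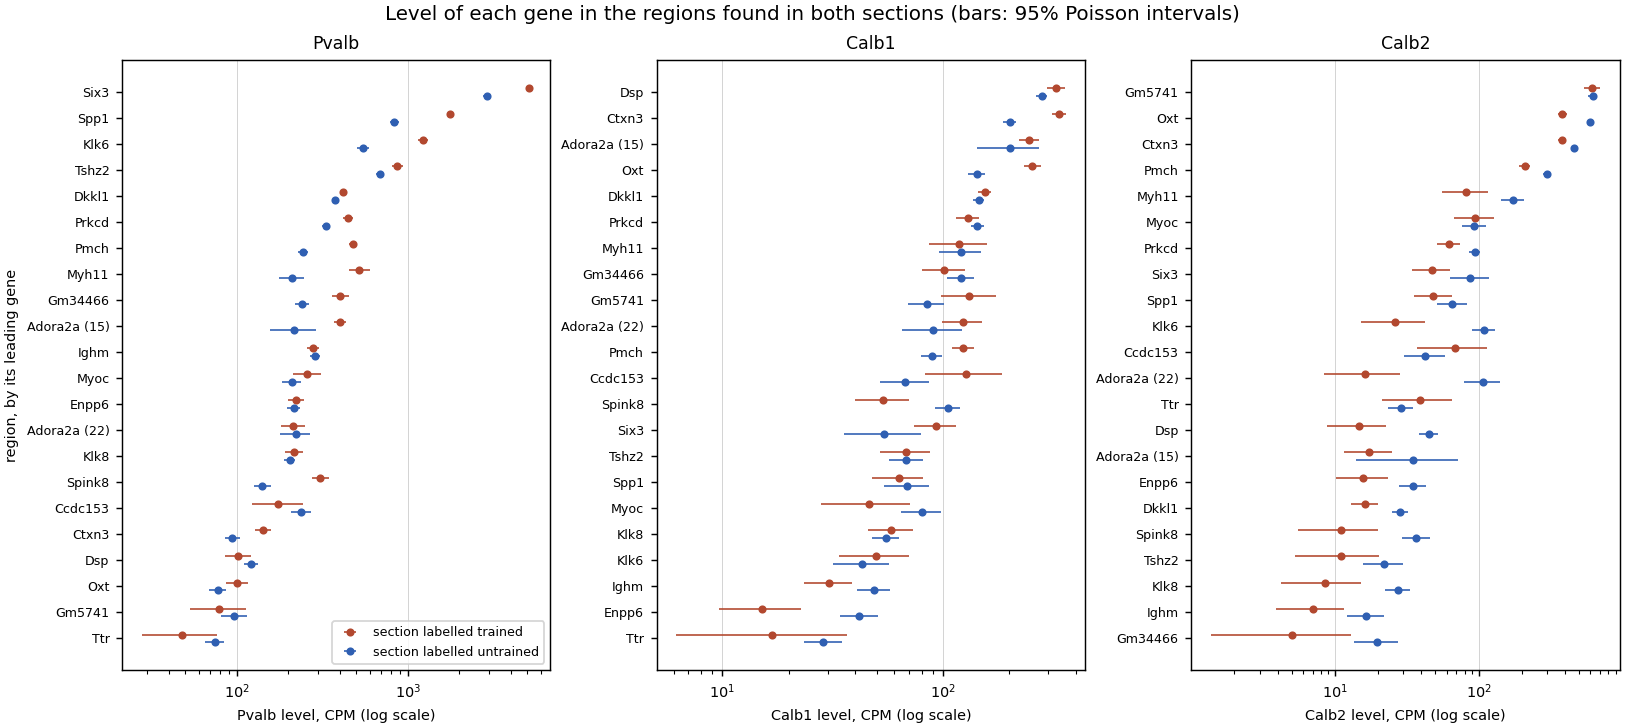
Level of each gene (CPM, log axis) in the 22 regions found in both sections, ordered by level and called by their leading gene (with a number where 2 share it), with points for the 2 sections and bars for 95% Poisson intervals. Pvalb peaks in the Six3 region, Calb1 in the dentate (Dsp) and medial thalamic (Ctxn3) regions, and Calb2 in 4 midline and ventral regions.

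The order of the 22 regions was much alike in both sections, with a Spearman correlation of 0.849 for Pvalb, 0.834 for Calb1 and 0.854 for Calb2. Few neighbours in that order differed beyond the spread of the sections: both values of a region lay above both values of the next for 6 of 21 neighbouring pairs for Pvalb, 3 for Calb1 and 3 for Calb2. The Six3 region stood clear of the Spp1 region for Pvalb, and the habenula region of the Oxt region for Calb2, although there the counting intervals of the section labelled untrained overlapped. Each of the 4 highest regions of Calb1 overlapped with the next. RNA that spreads between spots can set a floor to such values. In the choroid plexus region, an epithelium without neurons, with medians of 11069 and 39869 UMIs per spot, 16.75% and 20.04% of spots held Pvalb at 3000 UMIs, 4.53% and 8.84% held Calb1, and 11.4% and 9.18% held Calb2. Shares near or below these were not told apart from such a floor, as for Calb2 in CA1 (2.15% and 6.93% in the Gm34466 region) and deep cortex (2.24% and 4.94%), Pvalb in the habenula (20.7% and 24.6%) and Calb1 in white matter (4.35% and 10.8%). Whether the floor is the same in other regions was not tested. The Calb2 share of the choroid plexus region labelled trained rests on 14 UMIs, all on the right side.

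Across the thalamus Pvalb was highest in the outermost bin and Calb2 in the innermost, and neither changed evenly between them. The bins pooled the region led by Prkcd (Pvalb 447 and 331 CPM), the Ctxn3 region (142 and 94.3 CPM) and the Six3 region. The Pvalb level of a bin therefore also follows its share of Six3 spots and is not separate from the Six3 peak above. From the innermost to the outermost bin of grid columns either side of the midline, Pvalb went from 82.7 to 3759 CPM in the section labelled trained and from 43.3 to 2676 CPM in the section labelled untrained. Calb2 was highest next to the midline, at 520 and 1002 CPM, and was 119 and 18.6 CPM in the outermost bin. In the section labelled trained Calb2 was lowest 24 to 30 columns from the midline (18.9 CPM), where Pvalb stood at 1614 CPM, and from there to 30 to 36 columns Pvalb was lower (1031 CPM) and Calb2 higher (62.7 CPM). In the section labelled untrained both were higher at 18 to 24 columns than at 12 to 18, with 215 against 130 CPM for Pvalb and 264 against 165 CPM for Calb2. Calb1 went from 330 to 63.5 CPM and from 174 to 46.6 CPM, with its highest bin in the section labelled untrained 12 to 18 columns from the midline (248 CPM). In dorsal cortex Calb1 was highest 2 to 4 grid rows below the surface (306 and 239 CPM) and was 53.3 and 62.9 CPM at 6 to 8 rows. Pvalb had its highest cortical bin deeper, at 6 to 8 rows (459 CPM) and at 8 to 10 rows (457 CPM). Calb2 in cortex was highest at 2 to 4 rows in the section labelled trained (29.8 CPM, 20.9 to 41.3) and lowest at 8 to 10 rows (0.884 CPM, from 1 UMI). In the section labelled untrained it was highest at 4 to 6 rows (33.4 CPM, 25.8 to 42.6) and lowest at 8 to 10 rows (17.04 CPM). The choroid plexus regions stood at 39.2 CPM (21.5 to 65.8) and 28.9 CPM (23.6 to 35.1). The highest cortical bin of Calb2 lay below that level in the section labelled trained and above it in the other, with overlapping intervals in both.

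**Figure D3:**
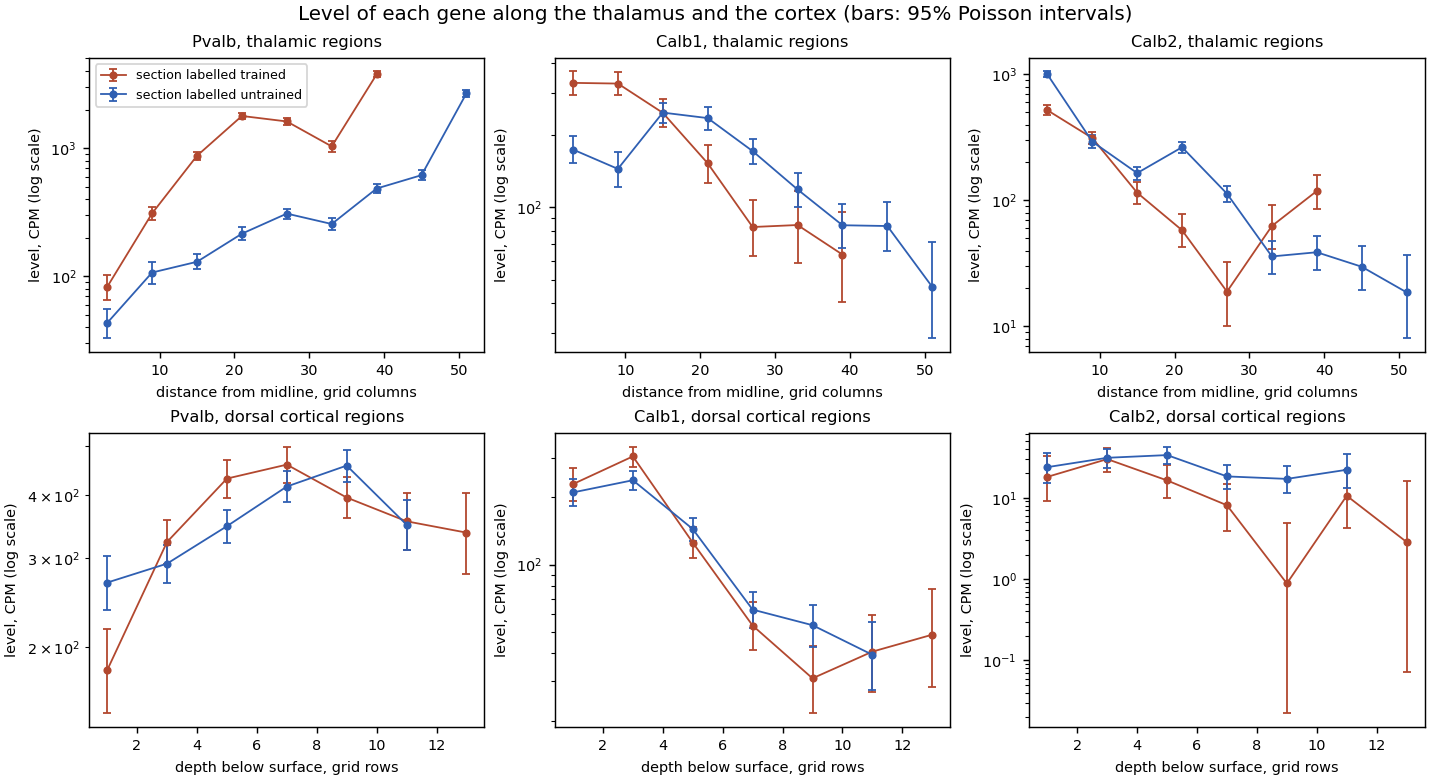
Level of each gene (CPM, log axes) against distance from the midline in the thalamic regions (upper row) and against depth below the surface in the dorsal cortical regions (lower row), with points for bins of spots and bars for 95% Poisson intervals. The thalamic regions are those led by Prkcd, Ctxn3 and Six3. In the thalamus Pvalb is highest in the outermost bin and Calb2 next to the midline, and Calb1 is superficial and Pvalb deeper in cortex.

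Neighbourhoods rich in Pvalb were seldom rich in Calb1 or Calb2, whereas those rich in Calb1 and Calb2 coincided beyond unrelated patterns in the section labelled trained and near that share in the section labelled untrained. Of the tenth of neighbourhoods (a spot with its neighbours) with most Pvalb, 11 of 395 and 2 of 361 were also in the tenth with most Calb1, and 3 of 395 and 1 of 361 in the tenth with most Calb2, against 10% for unrelated patterns. Calb1 and Calb2 shared 105 of 395 neighbourhoods (26.6%) in the section labelled trained and 39 of 361 (10.8%) in the section labelled untrained. Over all neighbourhoods the correlation of log2 levels was -0.22 and -0.24 for Pvalb with Calb1 (n = 3951 and 3611), -0.27 and -0.42 for Pvalb with Calb2, and 0.36 and 0.30 for Calb1 with Calb2, where neighbourhoods share spots and depth. As shares of regional level, summed over the 23 regions, Pvalb overlapped with Calb1 by 45.7% and 61.1% and with Calb2 by 29.7% and 37.7%, and Calb1 overlapped with Calb2 by 62.0% and 55.3%, where 100% would be the same distribution.

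Single spots departed less from independence. At 3000 UMIs, 431 spots held both Pvalb and Calb1 in the section labelled trained against 500 for independent genes, a ratio of 0.86 (0.78 to 0.95), and 368 against 406 in the section labelled untrained, a ratio of 0.905 (0.815 to 1.002). For Pvalb and Calb2 the ratios were 0.77 (0.68 to 0.87) and 0.74 (0.65 to 0.83). Calb1 and Calb2 were found together more often than independence gives, with ratios of 1.40 (1.23 to 1.58) and 1.19 (1.05 to 1.35). Without thinning, where deep spots hold more of every gene, the ratio turned to above 1 for Pvalb with Calb1 (1.03 and 1.05), and for Pvalb with Calb2 it was 0.94 in the section labelled trained and turned to 1.02 in the section labelled untrained. Put as shares, 40.9% and 32.2% of Calb2 spots also held Pvalb, while 53.1% and 43.6% of all spots did. All 3 genes were present in 2.676% and 2.202% of spots, and none in 24.9% and 29.5%.

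Within regions the departure from independence in shared detection was small, while levels still differed. With the expected number summed region by region, the ratios were 0.94 (0.85 to 1.03) and 0.96 (0.86 to 1.06) for Pvalb with Calb1, 0.94 (0.83 to 1.06) and 0.889 (0.784 to 1.003) for Pvalb with Calb2, and 1.03 (0.90 to 1.16) and 1.05 (0.93 to 1.19) for Calb1 with Calb2. Every one of these 6 intervals included 1. They are Poisson intervals of the observed number, with the expected number taken as fixed. Including 1 therefore does not show independence. In the hippocampal regions the ratio was 0.91 (0.64 to 1.25) and 1.04 (0.79 to 1.34) for Pvalb with Calb1, and for Pvalb with Calb2 it rested on 3.88 and 22.2 spots. By level, spots with Calb1 had less Pvalb than spots of the same region without it (log2 ratio -0.36 and -0.25). Spots with Pvalb had less Calb2 (-0.17 and -0.35) and slightly less Calb1 (-0.10 and -0.02), and spots with Calb1 had more Calb2 (0.29 and 0.49). Each kept its sign when regions were also divided by UMIs per spot. A spot covers several cells, so these values say nothing of whether single cells held 1 gene or more, and sharing a spot is not sharing a cell.

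**Figure D4:**
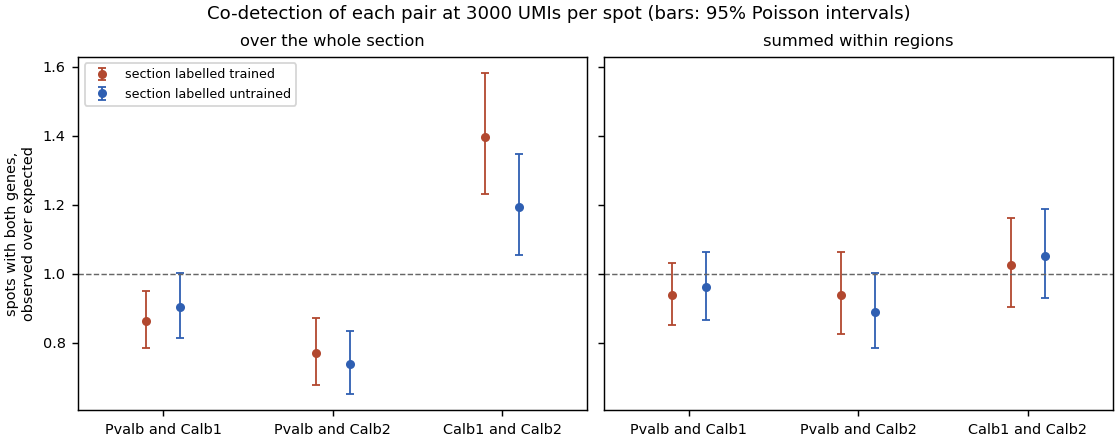
Spots with both genes of a pair over the number expected for independent genes, at 3000 UMIs per spot, over the whole section (left) and with the expectation summed within regions (right), with points for the sections and bars for 95% Poisson intervals. Over the section the pairs with Pvalb lie below 1 and Calb1 with Calb2 above it, and within regions all intervals include 1.

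Genes whose regional pattern was most like each member were named by the lower of the Pearson correlations of log2 level in the 2 sections, over 22 regions and 11388 genes. The 5 most like Pvalb were Kcnab3, a potassium channel subunit (r = 0.80 and 0.80), Gad1, the GABA-synthesising enzyme (0.77 and 0.80), Esrrg, a nuclear receptor (0.90 and 0.76), Ppargc1a, a regulator of mitochondrial genes (0.87 and 0.74), and Syt2, a fast synaptic calcium sensor (0.79 and 0.74). Those most like Calb2 were Pcbd1 (0.90 and 0.89), Zcchc12 (0.88 and 0.91), Vat1 (0.85 and 0.89), Slc17a6, the vesicular glutamate transporter of thalamus and hypothalamus (0.84 and 0.90), and Canx, an endoplasmic chaperone (0.90 and 0.83). Those most like Calb1 reached lower values, from Bhlhb9 (0.76 and 0.80) and Auts2 (0.77 and 0.74) through Caly (0.74 and 0.76) and Tram1l1 (0.72 and 0.73) to Matr3 (0.72 and 0.74). Gad1 had r of 0.02 and -0.01 with Calb1 and of -0.32 and -0.41 with Calb2. Among the members r was -0.06 and -0.28 for Pvalb with Calb1, -0.23 and -0.27 for Pvalb with Calb2, and 0.38 and 0.27 for Calb1 with Calb2.

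Spots that held a member were also set against spots of the same region that did not. Spots with Pvalb had more Syt2 (log2 ratio 1.20 and 1.65), Kcnab3 (1.19 and 0.86), Rpp25 (0.94 and 0.79), Spp1, the gene of osteopontin (0.77 and 0.98), and Scn4b, a sodium channel subunit (0.74 and 0.79). Of 8986 genes, 0.089% were at least 1.5-fold higher with Pvalb in both sections, 33.3% were above 0 in both and 24.5% below. All 6 measured GABA neuron genes were above 0 in both sections, led by Gad1 (0.79 and 0.68), with a list median of 0.42 and 0.26 against 0.02 and 0.02 over all genes. Of 16 measured genes of fast-spiking cells and perineuronal nets, 13 were above 0 in both and 1 below, with medians of 0.42 and 0.40. Of 25 measured genes of other EF-hand buffers and sensors, 5 were above 0 in both and 11 below. When each region was also divided into equal bins by UMIs per spot, a step chosen after seeing the data, 26.5% of all genes were above 0 in both sections and 27.8% below, and the lists had 5 of 6 GABA genes above, 13 of 16 fast-spiking genes above and 1 below, and 5 of 25 other EF-hand genes above and 9 below. Under that division Erbb4, the GABA gene no longer above 0 in both, stood at -0.04 and 0.04, and the EF-hand genes S100a10, Hpca and Kcnip2 were at -0.01, -0.04 and -0.05 in the section labelled trained.

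Spots with Calb1 or Calb2 had other partners. Highest with Calb1 were Dsp, the gene of desmoplakin and a dentate marker (1.53 and 0.99), Vip, the gene of vasoactive intestinal peptide in an interneuron class (0.71 and 0.57), Trerf1 (0.56 and 0.62), 2810455O05Rik (0.54 and 0.86) and Myh7 (0.53 and 0.52). Of all genes 0.0111% passed 1.5-fold in both sections, 42.8% were above 0 in both and 20% below. Highest with Calb2 were Gbx2, a transcription factor of the thalamus (1.07 and 1.10), Neurod1 (0.67 and 0.69), Siae (0.68 and 0.67), Necab1, another EF-hand gene (0.60 and 0.68), and Plxnc1 (0.58 and 1.06), with 0.0445% of all genes past 1.5-fold, 32.4% above 0 in both and 21.8% below. Of the 16 fast-spiking genes 10 were below 0 in both sections with Calb1 and 12 with Calb2, and of the 25 other EF-hand genes 13 were above 0 in both with either gene. Divided by UMIs per spot as well, 12 and 14 of the fast-spiking genes were below 0 with Calb1 and Calb2, against 24.5% and 25.3% of all genes, and 8 and 9 of the other EF-hand genes were above 0, against 31.5% and 27.9%. The same division left all 15 genes named as highest with a member above 0 in both sections, with Dsp at 1.24 and 0.45, Myh7 at 0.26 and 0.24, and Neurod1 at 0.53 and 0.28.

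Between the sections, Pvalb was 2.03-fold higher in the one labelled trained, Calb1 differed little and Calb2 was lower. The log2 ratio of trained over untrained was 1.02 (0.99 to 1.05) for Pvalb, 0.18 (0.12 to 0.23) for Calb1 and -0.58 (-0.64 to -0.52) for Calb2. Of 11460 genes, 12.8% were at least 1.5-fold apart in either direction, and the ratios had a median of 0.07 and an SD of 0.43 across genes. Only Pvalb of the 3 passed that fold, with Calb2 just short of it at 0.668-fold, and 2.54%, 62.2% and 12.9% of genes lay at least as far from 0 as Pvalb, Calb1 and Calb2. The left over right ratio within a section was -0.13 and -0.22 for Pvalb, 0.21 and -0.07 for Calb1, and 0.81 and 0.22 for Calb2, so for Calb2 the sides of 1 section differed by more than the sections did.

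The make-up of the sections moved with these ratios. The Six3 region covered 117 of 3958 clustered spots (2.96%) in the section labelled trained and 38 of 3624 (1.05%) in the section labelled untrained, and held 29.8% and 8.88% of all Pvalb UMIs. Without its spots the Pvalb ratio was 0.68 (0.64 to 0.71). The mean of the 22 regional log2 ratios of Pvalb, weighted by the spots of both sections, was 0.47. The same mean was -0.048 for Calb1 and -0.88 for Calb2. It weights regions by spots and not by UMIs, so regions with few UMIs of a gene count fully. It therefore cannot show how far make-up alone moved the section ratios. The main GABA neuron genes were also higher over the section labelled trained, with log2 ratios of 1.03 for Gad1, 0.97 for Gad2 and 1.01 for Slc32a1, the vesicular GABA transporter. As the same mean of regional ratios they stood at 0.53, 0.29 and 0.23. More cells of a type in the section and more RNA per cell cannot be told apart here, nor can training, animal, plane of section and library.

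Region by region, Pvalb had 16 ratios above 0 and 6 below, with 13 intervals wholly above 0 and none wholly below. The ratio was 0.81 (0.73 to 0.90) in the Six3 region, 1.09 (0.97 to 1.21) in the Spp1 region, 1.13 (0.90 to 1.36) and 0.75 (0.53 to 0.96) in the CA1 regions, and -0.25 (-0.54 to 0.03) in the dentate region. Calb1 had 12 ratios above and 10 below 0. Among them were 0.84 (0.66 to 1.02) in the Oxt region, 0.74 (0.60 to 0.88) in the Ctxn3 region and -0.97 (-1.43 to -0.54) in the Spink8 CA1 region, and it stood at 0.22 (0.05 to 0.38) in the dentate region. Calb2 had 19 of 22 below 0, with 15 intervals wholly below, but in the habenula region, where it was highest, the ratio was -0.01 (-0.23 to 0.20), and was -0.27 (-0.39 to -0.15) in the Ctxn3 region and -0.64 (-0.76 to -0.52) in the Oxt region. The sides of the Ctxn3 region went opposite ways, with 503 against 441 CPM on the left and 257 against 478 CPM on the right. The largest negative ratios of Calb2 came from regions with few Calb2 UMIs, such as -2.02 (-2.88 to -1.32) in the Klk6 region, with 17 and 122 UMIs. Some of the 15 lay below the choroid plexus levels of 39.2 and 28.9 CPM, such as the Gm34466 CA1 region (5.04 and 19.8 CPM).

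**Figure D5:**
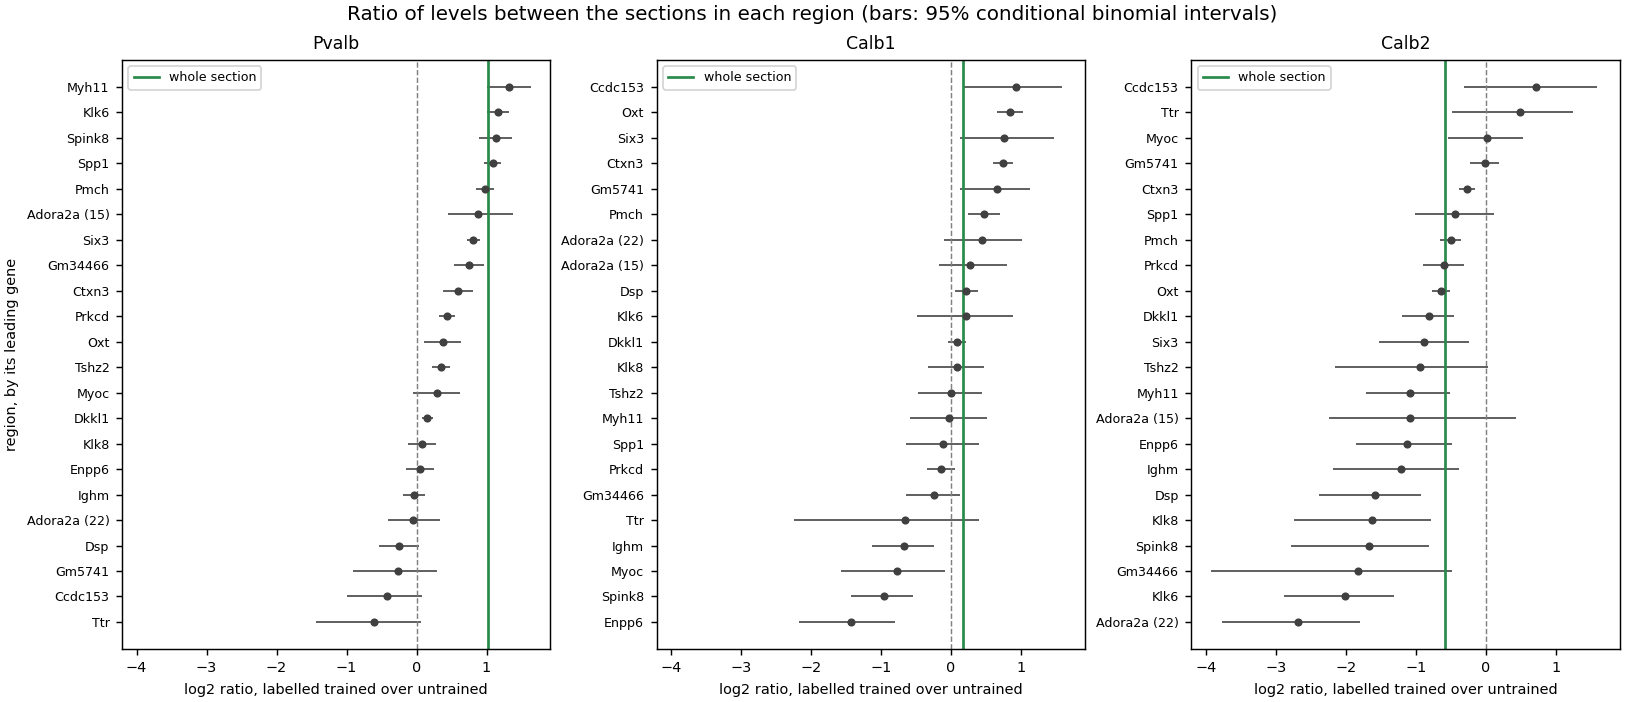
Log2 ratio between the sections (labelled trained over labelled untrained) of each gene in the 22 regions, with bars for 95% conditional binomial intervals, a dashed line at 0 and a green line at the ratio of the whole section. Most Pvalb ratios lie above 0, Calb1 ratios lie on both sides, and most Calb2 ratios lie below 0 with the habenula (Gm5741) at -0.01.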

How the data were processed

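Spot-by-gene counts were taken from the deposited matrices, in which the authors had counted UMIs with Space Ranger 2.0.0 on the mm10 reference after trimming reads with TrimGalore. Moran's I is a score computed in the deposited tables of the authors. The p-values of those tables and the image scale factors were not used here, nor were reads. No between-section test was run, since each group had 1 section of 1 mouse.

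Scripts ran in Python 3.11.15 with scanpy 1.11.5, leidenalg 0.10.2, igraph 0.11.9, scipy 1.17.1, numpy 2.4.6 and pandas 2.3.3. Figures used matplotlib 3.10.9. Spots of at least 500 UMIs were clustered jointly on 916 variable genes (30 principal components, 15 neighbours, Leiden resolution 1.5, seed 7). Clusters took the best-scoring marker set, and the naming thresholds and the midline, the median column of the habenula spots, were settled once maps had been looked at. Levels are pooled UMIs per 1000000 (CPM) with exact Poisson intervals, ratios have a pseudocount of 0.5 UMI and exact conditional binomial intervals, and the share of spots with a gene at 3000 UMIs is the exact expectation over draws without replacement. Genes of at least 400 UMIs over both sections were compared, with at least 100 in each for likeness, or 1000 for spots with and without a gene. Named genes were the 3 members, genes of the lists, and for each member the 5 most alike over regions (log2 of CPM plus 1) and the 5 with the highest lower ratio in spots that held it. The members and lists were chosen with earlier results of these data known. The ratio and thinning functions were tested on simulated data. Gene positions came from GENCODE vM21.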

Additional observations from a re-analysis of the deposited data

Results flagged for a closer look

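Regions differed in the direction of the Calb1 ratio between the sections, with 7 of 22 intervals wholly above 0 and 4 wholly below. The highest and the lowest ratio both rested on few UMIs. In the ependymal region led by Ccdc153 the log2 ratio of trained over untrained was 0.922 (0.186 to 1.59), from 26 and 62 UMIs, and in the white matter region led by Enpp6 it was -1.44 (-2.18 to -0.797), from 23 and 104 UMIs. The difference between the regions was not tested.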

How the results depend on the processing

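No paired analysis was possible because each group had 1 section. The section ratio of Pvalb stayed above 0 in all alternatives. It was 0.95 with spots weighted equally, 0.96 without mitochondrially encoded genes, and 0.47 as the spot-weighted mean of regional ratios. On the left and right side it was 1.07 and 0.99. In alternatives chosen after seeing the data, it was 0.68 without the Six3 region and 0.97 without the Cartpt region. That of Calb1 was 0.089, 0.11, 0.34 and 0.056 for equal spots, no mitochondrial genes, left and right, and 0.29 without the Cartpt region. The spot-weighted mean of its regional ratios was below 0, at -0.048. The section ratio of Calb2 was -0.49, -0.65, -0.28 and -0.87 in the same order, and -0.88 as the spot-weighted mean. A pseudocount of 5 UMIs changed none of the 3.

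Co-detection over the section depended on depth. For Pvalb and Calb1 it was 0.76 at 1000 UMIs in the section labelled trained and, without thinning, above 1, at 1.03 (1.04 with 2 UMIs to count) there and 1.05 (1.06 with 2 UMIs) in the section labelled untrained. For Pvalb and Calb2 it was 0.65 and 0.62 at 1000 UMIs, and without thinning 0.94 and 1.02 (0.92 with 2 UMIs in the section labelled untrained). For Calb1 and Calb2 it was 2.05 and 1.45 with 2 UMIs. Deep spots hold more of every gene, so unthinned ratios also count depth. Within regions 29 of 30 alternatives stayed inside the interval, and the other was 1.03 for Pvalb and Calb2 without thinning in the section labelled untrained.

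The regional overlap of Pvalb with Calb1 was 53.7% (trained) and 62.8% (untrained) at resolution 1.0, 56.3% (untrained) at 2.5, and 43.7% and 49.6% with equal regions. That of Pvalb with Calb2 was 44.2% and 46.3% at 1.0, 32.0% (trained) at 2.5 and 36.4% (untrained) with equal regions. That of Calb1 with Calb2 was 54.4% (trained) with equal regions and 54.0% (untrained) at 2.5. Leading-region levels and section levels moved by less than their intervals when shallow spots were left out. The share of genes past 1.5-fold, 12.8% at 400 UMIs over both sections, was 16.4% at 100 and 11.1% at 1000. Small counts limit co-detection in the hippocampal regions, where in the section labelled trained 3.88 of 411 spots held Pvalb and Calb2 at 3000 UMIs, against 22.2 of 548 in the section labelled untrained.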

Other observations

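Of 13 measured genes of calcium extrusion and stores, 9 were above 0 in both sections in spots with Calb1, 4 in spots with Pvalb and 1 in spots with Calb2, where 42.8%, 33.3% and 32.4% of all genes were. With regions also divided by UMIs per spot the counts were 6, 2 and 0, against 31.5%, 26.5% and 27.9% of all genes. Atp2b2, a plasma membrane calcium pump, had a regional correlation of 0.41 and 0.35 with Pvalb, 0.33 and 0.35 with Calb1, and -0.44 and -0.42 with Calb2 (22 regions). Slc8a3, a sodium-calcium exchanger, stood at 0.62 and 0.60 with Calb2. Sst, the gene of somatostatin and like Pvalb a marker of interneurons, was also highest in the Six3 region in both sections, with a regional correlation of 0.46 and 0.53 with Pvalb. Of 12 measured genes of interneuron classes other than the members, 4 were above 0 in both sections and 5 below in spots with Pvalb, 7 and 1 in spots with Calb1, and 5 and 3 in spots with Calb2. Of 7 measured genes of glutamate neurons the counts were 1 and 2, 3 and 0, and 2 and 2. With regions also divided by UMIs per spot they were 5 and 5, 6 and 1, and 4 and 4 for the interneuron genes, and 1 and 2, 3 and 2, and 1 and 4 for the glutamate genes, where 26.5% and 27.8%, 31.5% and 24.5%, and 27.9% and 25.3% of all genes were above and below. Without that division the shares of all genes above and below were 33.3% and 24.5% with Pvalb, 42.8% and 20% with Calb1, and 32.4% and 21.8% with Calb2.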
